A study of Mus musculus with 22 samples.

Results

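Glucagon-deficient mouse liver that received the low glucagon dose (Gcg-/- with 30 µg/d, 4 libraries numbered 11 to 14) was set against wild-type (WT) liver without infusion (3 libraries numbered 1 to 3), across all genes. These are 7 of the 22 libraries of the series, and they were taken by the genotype and infusion in their titles. The comparison asks which genes of the deficient liver were away from the uninfused WT level when the low dose was given. It does not require that they were away from it without infusion. The other groups, used here as values beside it, were Gcg-/- with 150 µg/d (4 libraries), Gcg-/- without infusion (3 libraries), and WT with 30 or 150 µg/d (4 libraries each). Genotype and infusion differ together between the 2 groups compared, so what each contributes cannot be told apart from this difference alone. The labels give no sex, age, strain, duration or route of infusion, vehicle or time of collection, and do not say that each library is a separate mouse.

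Glucagon is made by the alpha cells of the pancreas from the gene Gcg and acts on hepatocytes through its receptor Gcgr, a G protein-coupled receptor that raises cyclic AMP. In the liver it is known for driving glucose output and the uptake and breakdown of amino acids, with the nitrogen leaving as urea. Many of these enzymes sit in hepatocytes near the portal vein, while glutamine synthesis and much drug metabolism sit near the central vein, a division called zonation that the series addresses.

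Expression was deposited as RPKM, a read count scaled by transcript length and by the size of the library, for 24475 genes. Of these, 11590 had a mean of at least 0.5 RPKM over the 22 libraries and were tested. Depth, estimated from the steps between low values, was between 11.1 and 17.6 M reads over the 7 libraries. The groups did not overlap in it. Each Gcg-/- library at 30 µg/d, at most 13.7 M reads, was estimated as less deep than each uninfused WT library. The part of this difference in the results was not tested. The targeted gene, Gcg, is not a liver gene and had 0 RPKM in each of the 22 libraries, so it cannot check the genotype. Gcgr stood at 85.1, 81.4, 68.7 and 84.1 RPKM in the Gcg-/- libraries at 30 µg/d and at 93.9, 86.4 and 89.1 RPKM in the uninfused WT libraries (log2 fold change -0.17, adjusted p = 0.44). The hepatocyte marker Alb was high in both groups, at 19711, 30051, 45263 and 25311 RPKM in Gcg-/- libraries 11 to 14, against 24096, 25505 and 28277 RPKM in WT libraries 1 to 3.

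One library stood apart. Male-biased liver genes, a list of 19, averaged 6.48 on the log2(RPKM + 1) scale in Gcg-/- library 13, against 8.84 to 9.43 in the other Gcg-/- libraries at 30 µg/d and 8.32 to 9.004 in WT. The list of 23 female-biased genes averaged 2.36 in library 13, against 0.88 to 1.02 in the other 3 and 0.91 to 1.17 in WT. Cyp2b9, a cytochrome P450 on that list, was at 42.9 RPKM in library 13 and listed at 0 in libraries 11, 12 and 14. Library 4 of uninfused Gcg-/- liver stood apart in the same way, at 4.88 and 3.53 for these lists. Neither library stood apart in Ddx3y, a gene of the Y chromosome, or in Xist, the RNA of the inactive X chromosome. Ddx3y was at 14.5 RPKM in library 13 and 13.96 RPKM in library 4, within 8.04 to 16.3 RPKM over the 22 libraries. Xist was at 0.0127 and 0.0294 RPKM, within 0.0041 to 0.0301 RPKM. The part of the sex-biased genes in the results was not tested. Where leaving out library 13 alone brought a gene described here past the test, the value without it is given too.

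At 30 µg/d, 125 genes were called, meaning a limma adjusted p under 0.05, which is 1.08% of the genes tested. Of these, 42 were higher (0.362%) and 83 were lower (0.716%) in Gcg-/- liver at 30 µg/d than in uninfused WT liver. In all 125 the 4 Gcg-/- values lay to one side of the 3 WT values, but so did the values of 2171 genes in all, 18.7% of those tested. Of the called genes 32 differed by 2-fold or more after 1 RPKM was added, 9 higher and 23 lower. The median log2 fold change of all tested genes was -0.01. In the same fit, 179 genes (1.54%) were called for uninfused Gcg-/- against uninfused WT liver and 23 (0.198%) for Gcg-/- at 150 µg/d against uninfused WT. For Gcg-/- against WT liver, both at 30 µg/d, 38 genes (0.328%) were called, and for Gcg-/- liver at 30 µg/d against uninfused Gcg-/- liver 10 (0.0863%). These comparisons share libraries with each other, and the counts do not say that they hold the same genes. For WT liver at 30 µg/d against uninfused WT limma called 0 genes (0%), with 657 at an unadjusted p under 0.05; other tools were not run on it.

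The count changed when single libraries were left out, as the bar plot of genes called with 1 library left out shows. An omission also makes its group smaller, by 1 of 3 WT or 1 of 4 Gcg-/- libraries, which by itself weakens the test. How much of the change came from group size was not tested. Without WT library 3, 4 genes were called, without WT library 2, 17, and without WT library 1, 28. Leaving out Gcg-/- library 11, 12, 13 or 14 gave 52, 41, 116 or 86 called genes. Of 65 called genes followed individually, 3 stayed called in each of these 7 fits, namely Robo1, Bhlhe41 and Zap70. The direction of the 65 could not turn in these fits, because the compared groups did not overlap in any called gene. For a called gene described here, the highest adjusted p over the 7 fits follows the adjusted p, after the words "at most", with the libraries whose omission ended the call. The number of the 65 whose call ended was 62 without WT library 3, 56 without library 2 and 46 without library 1. Without Gcg-/- library 11, 12, 13 or 14 it was 35, 40, 21 or 25.

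**Figure D1:**
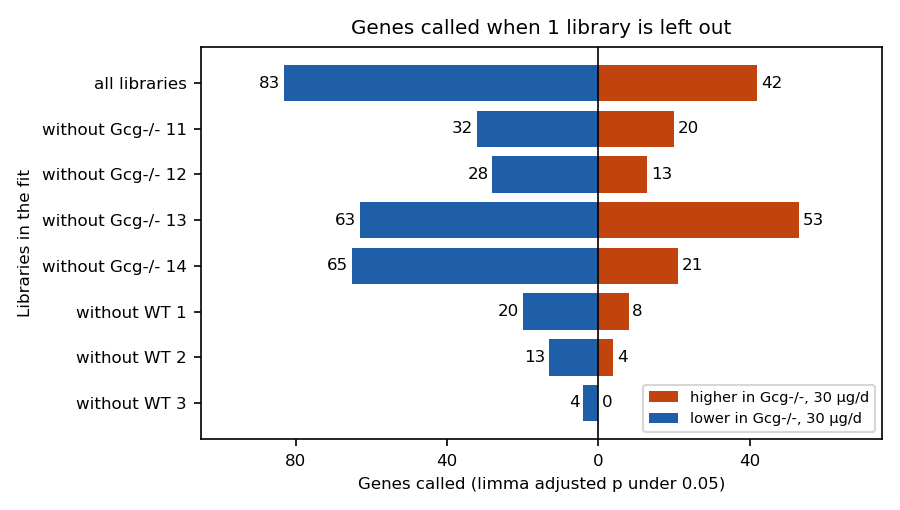
Number of genes called with limma (adjusted p under 0.05; horizontal axis, higher to the right and lower to the left) with all libraries and with each of the 4 Gcg-/- libraries at 30 µg/d or the 3 uninfused WT libraries left out (rows). There were 125 calls with all libraries, 4 without WT library 3 and 116 without Gcg-/- library 13, of which 71 were among the 125.

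Among called genes the largest log2 fall was in Asns, asparagine synthetase, which makes asparagine from aspartate and glutamine and is a textbook target of the stress factor ATF4. It stood at 0.691, 0.704, 1.27 and 0.831 RPKM in Gcg-/- libraries 11 to 14, against 14.2, 12.04 and 10.5 RPKM in WT libraries 1 to 3. The groups lay far apart, and the mean at 30 µg/d was 7.13% of the uninfused WT mean (log2 fold change -2.82 ± 0.46 SE, adjusted p = 0.00968; at most 0.0566, lost without 3). Uninfused Gcg-/- liver averaged 1.73 ± 0.962 RPKM (SD, n = 3) and Gcg-/- liver at 150 µg/d 6.61 ± 2.99 RPKM (SD, n = 4), while WT liver at 30 µg/d averaged 12.9 ± 8.49 RPKM (SD, n = 4). At the matched dose of 30 µg/d, Gcg-/- against WT liver also passed the test for Asns (log2 fold change -2.61, adjusted p = 0.00986). Of the 19 tested genes on the list of ATF4 and unfolded protein response genes, Asns was called lower and none higher (5.26%, beside 1.08% of all tested genes), and the list's median log2 fold change was 0.18. Its next members by p lay above 0 and did not pass with all libraries. Herpud1, an endoplasmic reticulum stress gene, stood at 275, 316, 195 and 292 RPKM in Gcg-/- liver at 30 µg/d against 172, 179.8 and 167 RPKM in WT liver (log2 fold change 0.61, adjusted p = 0.0751). Library 13 was the lowest of the 4, and without it Herpud1 was called higher (log2 fold change 0.76, adjusted p = 0.0253). Dnajb9, a chaperone of the same compartment, stood at 37.1, 37.8, 43.4 and 51.7 against 13.7, 28.1 and 20.7 RPKM (log2 fold change 1.04, adjusted p = 0.0793).

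The Asns gene lies on chromosome 6, minus strand, and the 250 bases before its start (RefSeq, GRCm38.p6, chr6:7693210-7693459) are shown because Asns had the largest log2 fall among called genes. Capitals mark a match to TGATGNAA, the letters of the C/EBP-ATF element, sought on both strands and beginning 23 bases before the start. This motif was added after Asns was seen.
Asns: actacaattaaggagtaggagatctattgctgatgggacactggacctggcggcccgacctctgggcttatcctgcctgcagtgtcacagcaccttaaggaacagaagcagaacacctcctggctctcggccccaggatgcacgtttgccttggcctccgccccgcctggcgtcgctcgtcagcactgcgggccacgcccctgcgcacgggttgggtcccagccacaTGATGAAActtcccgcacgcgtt
Of the 11791 promoter windows (250 bases before to 50 after the start) of tested genes, 2.2% held these letters, against 3.09% of the 97 windows of genes called lower and 0 of the 37 of genes called higher. A match describes the letters and is not evidence of binding.

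Among the 59 tested enzymes of amino acid catabolism, 2 were called lower and none higher (3.39%), with a median log2 fold change of -0.21 and 47 members below 0. The first was Oat, ornithine aminotransferase, the mitochondrial enzyme that links ornithine to glutamate and is found near the central vein. Oat stood at 182, 143, 209.9 and 121 RPKM in Gcg-/- libraries 11 to 14, against 556, 753 and 722 RPKM in WT libraries 1 to 3. Every Gcg-/- value was well under the lowest WT value, and the mean was 24.3% of that of WT (log2 fold change -2.06 ± 0.39 SE, adjusted p = 0.0163; at most 0.104, lost without 1, 2, 3 or 12). In uninfused Gcg-/- liver Oat averaged 10.1% of WT, and at 150 µg/d 708 ± 311 RPKM (SD, n = 4), beside 677 ± 106 RPKM in uninfused WT (SD, n = 3). The difference between 30 µg/d and no infusion within Gcg-/- liver did not pass the test for Oat (log2 fold change 1.25, adjusted p = 0.271). The second was Haao, 3-hydroxyanthranilate dioxygenase of the path from tryptophan to NAD, at 209, 209.7, 222 and 219.5 RPKM against 293, 281 and 304 RPKM in WT (log2 fold change -0.44 ± 0.10 SE, adjusted p = 0.0372, a call lost whichever of the 7 libraries was left out).

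Other amino acid enzymes were low in most Gcg-/- libraries at 30 µg/d but did not pass the test, and in several of them library 13 was nearest to WT. Got1, cytosolic aspartate aminotransferase, stood at 16.01, 45.2, 90.9 and 18.4 RPKM in Gcg-/- libraries 11 to 14, against 101, 113 and 103 RPKM in WT (log2 fold change -1.63, 95% interval -3.20 to -0.06, adjusted p = 0.285). Gls2, the liver glutaminase, stood at 49.7, 60.4, 137 and 41.1 RPKM, against 155, 157 and 179.9 RPKM in WT (log2 fold change -1.34, adjusted p = 0.102), and without library 13 it was called (log2 fold change -1.70, adjusted p = 0.0367). For Sds, serine dehydratase, the values were 28.4, 109, 157 and 51.9 RPKM against 125, 140.4 and 128 RPKM (log2 fold change -0.87, adjusted p = 0.492), so library 11 was lowest and library 13 above all WT values. Cbs, which condenses homocysteine with serine, ran at 61.5, 81.6, 123 and 81.4 RPKM against 186, 181 and 206 RPKM (adjusted p = 0.0881). Hal, the first enzyme of histidine breakdown, ran at 65.98, 97.6, 171 and 93.8 RPKM against 200.3, 163 and 192 RPKM (adjusted p = 0.149). Amt, of the glycine cleavage system, lay at 12.9, 13.7, 18.7 and 15.8 RPKM against 23.6, 25.9 and 22.5 RPKM (adjusted p = 0.0563; 0.0367 without library 13). Nnmt, which methylates nicotinamide, was at 54.4, 48.97, 77.04 and 61.7 RPKM against 120.1, 106 and 103 RPKM, without overlap but with an adjusted p of 0.467. Among the 9 tested urea cycle and ammonia genes 0 were called by limma, and 0 were under an unadjusted p of 0.05 (median log2 fold change -0.10). Ass1, argininosuccinate synthetase, at 897, 1126, 2223 and 919.9 RPKM against 1676, 1893 and 2138 RPKM, overlapped between the groups. Among 21 amino acid transporters 1 was called higher, Slc43a2, a carrier of large neutral amino acids, at 2.85, 3.64, 2.96 and 3.298 RPKM against 2.18, 2.37 and 1.96 RPKM (log2 fold change 0.40, adjusted p = 0.0481, a call lost whichever of the 7 libraries was left out).

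Several more of the largest falls had levels at 30 µg/d near those of uninfused Gcg-/- liver. Lhpp, a phosphatase that acts on phosphohistidine, stood at 12.1, 13.6, 17.003 and 11.1 RPKM in Gcg-/- liver at 30 µg/d, against 35.5, 46.6 and 46.004 RPKM in WT (log2 fold change -1.60 ± 0.33 SE, adjusted p = 0.0246; at most 0.133, lost without 1, 2, 3, 11, 12 or 14). Uninfused Gcg-/- liver averaged 9.72 ± 0.456 RPKM of Lhpp and Gcg-/- liver at 150 µg/d 42.7 ± 17.4 RPKM (SD, n = 3 and 4). Mmd2, a membrane protein of the progestin and adipoQ receptor family, was nearly off, at 0.0827, 0, 0.168 and 0.249 RPKM against 2.86, 3.98 and 2.09 RPKM in WT (log2 fold change -1.80, adjusted p = 0.0098; at most 0.0624, lost without 2 or 3). Its mean was 0.0641 RPKM in uninfused Gcg-/- liver, 3.75 RPKM in Gcg-/- liver at 150 µg/d and 15.02 RPKM in WT liver at 150 µg/d. Zap70, the kinase of the T cell receptor, was at 0.992, 2.198, 1.07 and 1.82 RPKM against 4.85, 6.58 and 5.18 RPKM in WT (log2 fold change -1.40, adjusted p = 0.00699; at most 0.0413). Zap70 kept its call in all 17 alternatives, and it differed from WT at the matched 30 µg/d too (log2 fold change -1.39, adjusted p = 0.00529). Robo1, a receptor for Slit guidance proteins, had the smallest p of all genes and came just after the 15 largest falls. It was at 0.516, 0.401, 0.657 and 0.363 RPKM against 1.72, 3.31 and 2.32 RPKM (log2 fold change -1.19, adjusted p = 0.00677; at most 0.0343). The Robo1 mean was 0.541 RPKM in uninfused Gcg-/- liver, 0.839 RPKM in Gcg-/- liver at 150 µg/d and 1.98 RPKM in WT liver at 30 µg/d.

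Further genes among the largest falls, and 1 paralog, were the following. Lrtm1 was at 0.1698, 0.3598, 0.266 and 0.375 RPKM in Gcg-/- liver at 30 µg/d against 1.61, 4.45 and 2.94 RPKM in WT (adjusted p = 0.029; at most 0.138, lost without 2, 3, 11, 12 or 14). For Gnat1, known as the transducin alpha subunit of rods, values were 0.724, 1.301, 2.71 and 1.55 RPKM against 5.299, 5.84 and 5.25 RPKM (adjusted p = 0.0273; at most 0.117, lost without 1, 2, 3, 11 or 12), and the mean at 150 µg/d in Gcg-/- liver was 6.88 RPKM. Meg3, an imprinted long noncoding RNA, had 0.524, 1.14, 0.299 and 0.969 RPKM against 5.74, 2.903 and 2.23 RPKM (adjusted p = 0.0416, a call lost whichever of the 7 libraries was left out). Gstm2, a glutathione S-transferase, had 26.98, 24.2, 27.05 and 21.4 RPKM against 46.5, 66.1 and 64.8 RPKM (log2 fold change -1.20, adjusted p = 0.0098; at most 0.0723, lost without 2 or 3). Its paralog Gstm6 had 29.7, 33.9, 46.2 and 30.4 RPKM against 56.8, 72.4 and 87.03 RPKM (adjusted p = 0.0273; at most 0.177, lost without 2, 3, 11, 12 or 14). The mu-class genes are near copies, and how the authors' counting divided shared reads is not given in the sources used here.

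**Figure D2:**
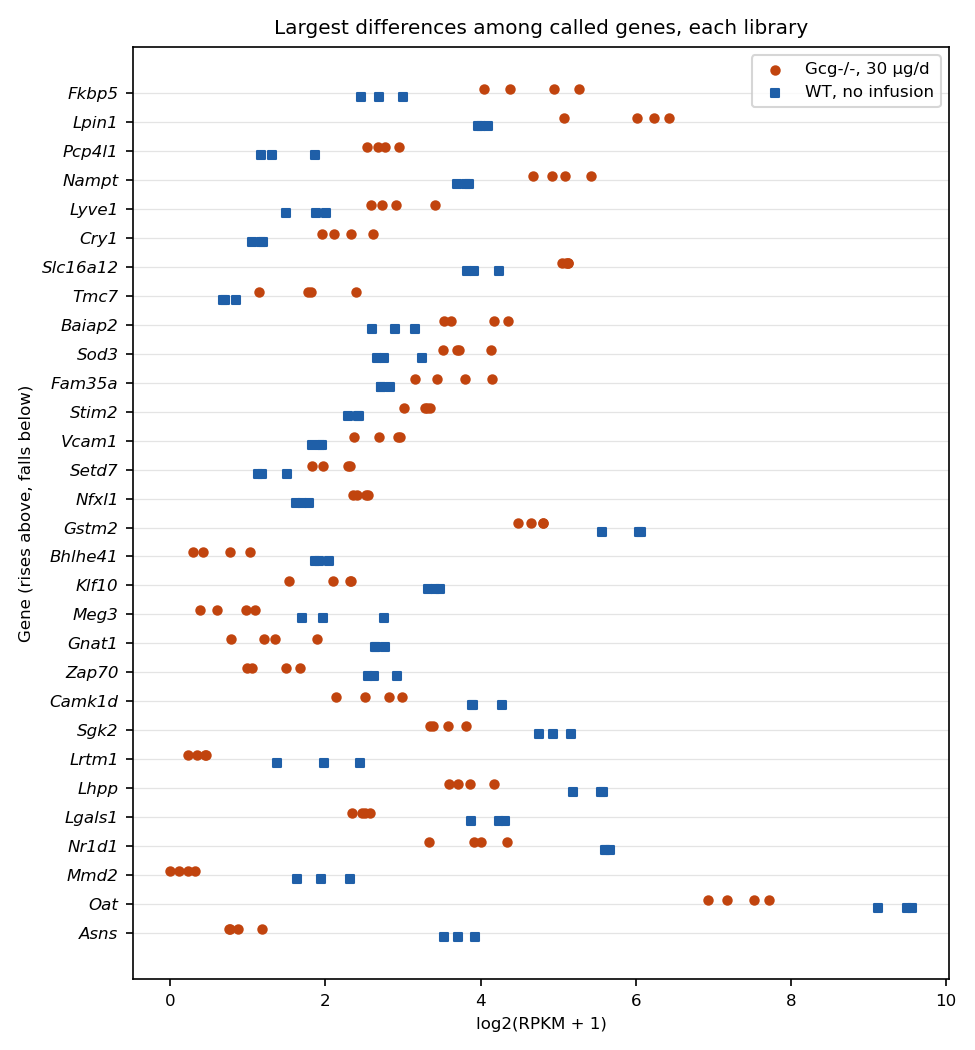
Each library's log2(RPKM + 1) (horizontal axis) for the 15 largest rises and 15 largest falls among called genes (rows), with Gcg-/- libraries at 30 µg/d as circles and uninfused WT libraries as squares. In every row the circles and squares are separate, as in all 125 called genes, with the widest gap at Asns.

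In another set of falls, uninfused WT liver was high and the other groups, infused WT liver included, had lower means. Lgals1, which encodes the sugar-binding protein galectin-1, stood at 4.55, 4.09, 4.69 and 4.96 RPKM in Gcg-/- liver at 30 µg/d against 13.7, 18.9 and 17.8 RPKM in uninfused WT (log2 fold change -1.66 ± 0.29 SE, adjusted p = 0.0098; at most 0.0668, lost without 2 or 3), but WT liver at 30 µg/d averaged 7.89 ± 4.19 RPKM (SD, n = 4). Adck3, a mitochondrial kinase-like protein of coenzyme Q synthesis, named after its values were seen, was at 43.7, 63.8, 44.9 and 42.5 RPKM against 96.8, 99.5 and 121 RPKM (log2 fold change -1.12, adjusted p = 0.0253; at most 0.151, lost without 1, 2, 3, 11 or 14). The mean of Adck3 was 54.5 RPKM in uninfused Gcg-/- liver, 49.8 RPKM in Gcg-/- liver at 150 µg/d, and 49.1 and 50.4 RPKM in WT liver at 30 and 150 µg/d. At the matched dose Gcg-/- against WT liver did not pass the test for Adck3 (log2 fold change 0.03, adjusted p = 0.981) or for Lgals1 (log2 fold change -0.56, adjusted p = 0.414), and WT at 30 µg/d against uninfused WT did not pass for either (adjusted p = 0.461 and 0.834). The kinase genes Sgk2 and Camk1d also had their highest mean in uninfused WT liver. Sgk2 was at 9.48, 9.21, 10.9 and 12.99 RPKM against 29.7, 25.9 and 34.9 RPKM in uninfused WT (adjusted p = 0.0273; at most 0.157, lost without 1, 2, 3, 11 or 12) and averaged 20.7 RPKM in WT at 30 µg/d. Camk1d was at 3.38, 6.92, 6.08 and 4.71 RPKM against 13.8, 13.97 and 18.4 RPKM (adjusted p = 0.0273; at most 0.161, lost without 1, 2, 3, 11 or 14) and averaged 9.24 RPKM in WT at 30 µg/d.

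**Figure D3:**
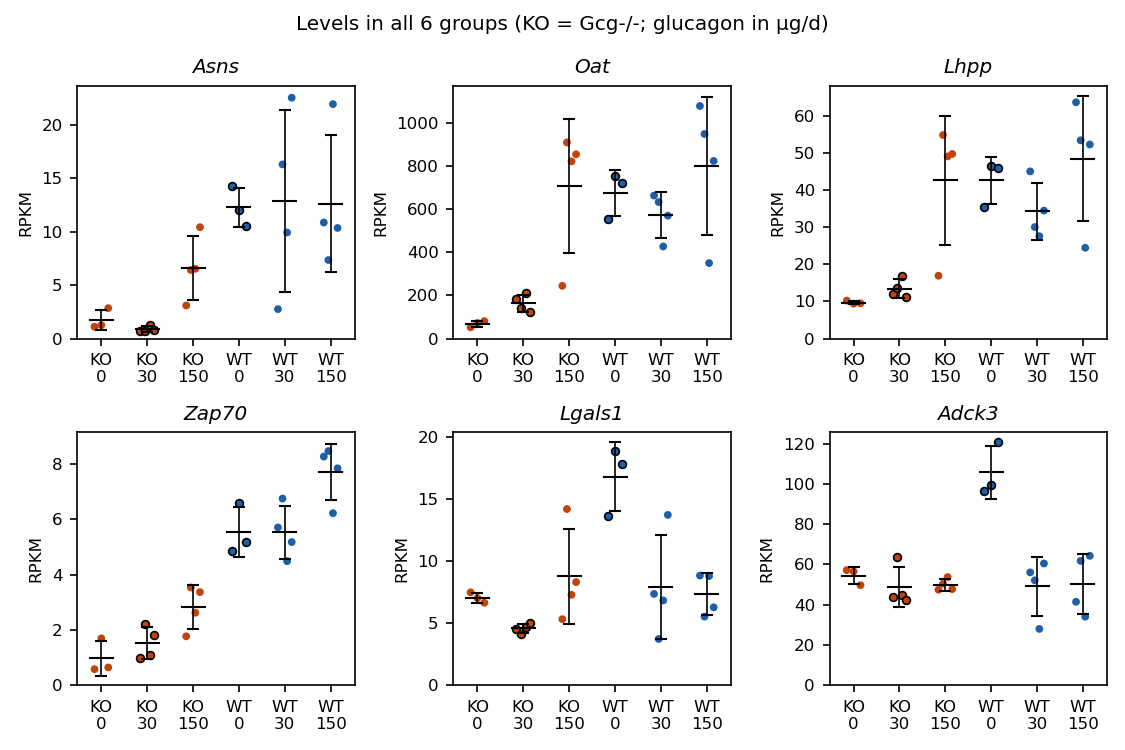
RPKM (vertical axes) of 6 genes called lower, in Gcg-/- (KO) and WT liver at 0, 30 and 150 µg/d of glucagon; points are libraries, bars the mean and SD, and outlined points the 2 groups compared. Asns, Oat, Lhpp and Zap70 were low in Gcg-/- liver at 0 and 30 µg/d, while for Lgals1 and Adck3 uninfused WT liver had the highest mean.

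Klf10, a zinc-finger factor induced early by TGF-beta, took another course. It stood at 3.28, 4.05, 1.89 and 3.97 RPKM in Gcg-/- liver at 30 µg/d, against 9.04, 10.2 and 9.63 RPKM in uninfused WT (log2 fold change -1.34 ± 0.22 SE, adjusted p = 0.0098; at most 0.058, lost without 2 or 3). Its fall against uninfused Gcg-/- liver passed the test as well (log2 fold change -1.79, adjusted p = 0.00176). Uninfused Gcg-/- libraries 4 to 6 stood at 15.2, 17.9 and 8.98 RPKM of Klf10, with a mean of 14.03 RPKM. Against uninfused WT they did not pass (log2 fold change 0.45, adjusted p = 0.34). WT liver at 30 and 150 µg/d averaged 6.55 and 4.81 RPKM of Klf10. At the matched dose of 30 µg/d, Gcg-/- against WT liver did not pass for it (adjusted p = 0.112). Klf10 was the 1 called gene among 22 immediate early and stress genes (4.55%, median log2 fold change -0.24) and among 14 carbohydrate-response genes (7.14%, median -0.07), both lists holding it. Junb, on the first list, lay at 11.2, 20.6, 8.11 and 7.54 RPKM against 48.4, 36.2 and 19.9 RPKM, overlapping between the groups.

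Clock genes held 3 called members among the 17 tested (17.6%, beside 1.08% of all tested genes), 1 higher and 2 lower, with a median log2 fold change of 0.10. The liver clock is a loop in which the activators Clock and Arntl switch on their own repressors at E-boxes. Nr1d1, the heme-binding repressor Rev-erb alpha, stood at 14.1, 15.004, 9.13 and 19.3 RPKM in Gcg-/- libraries 11 to 14, against 47.9, 49.7 and 47.8 RPKM in WT libraries 1 to 3 (log2 fold change -1.73 ± 0.33 SE, adjusted p = 0.016; at most 0.083, lost without 1, 2 or 3). Bhlhe41, the repressor Dec2, stood at 0.341, 0.705, 0.229 and 1.04 RPKM against 3.14, 2.79 and 2.63 RPKM (log2 fold change -1.31 ± 0.19 SE, adjusted p = 0.00699; at most 0.0343). Cry1, a cryptochrome that represses Clock and Arntl, went the other way, at 4.03, 3.31, 5.12 and 2.88 RPKM against 1.26, 1.08 and 1.28 RPKM (log2 fold change 1.11 ± 0.24 SE, adjusted p = 0.0312; at most 0.137, lost without 1, 2, 3, 11, 12 or 13, and 0.0621 without library 13). All 4 Gcg-/- values of each of these genes lay beyond the WT values.

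Other clock genes did not pass. Bhlhe40, the paralog Dec1, was at 55.3, 42.8, 30.3 and 36.4 RPKM against 64.3, 62.3 and 66.3 RPKM (adjusted p = 0.106). Per2, a period repressor, was at 7.41, 10.5, 14.8 and 11.9 RPKM against 5.402, 6.53 and 7.397 RPKM (adjusted p = 0.169), and Dbp, an output factor, at 12.9, 28.2, 24.4 and 36.8 RPKM against 36.2, 50.3 and 42.9 RPKM (adjusted p = 0.187). Per1 and Arntl had log2 fold changes of -0.04 and -0.03, with 95% intervals of -0.59 to 0.50 and -0.54 to 0.49. For Arntl, Gcg-/- library 11 was at 2.55 RPKM, beside 0.315 to 0.641 RPKM in the others at 30 µg/d. Over single omissions the Arntl log2 fold change ranged between -0.34 and 0.14. Means of Nr1d1 in the other groups were 23.3 RPKM in uninfused and 19.9 RPKM in 150 µg/d Gcg-/- liver, and 32.3 and 19.5 RPKM in WT liver at 30 and 150 µg/d. In the same order, means of Bhlhe41 were 1.06 and 0.952 RPKM in Gcg-/- liver, and 2.51 and 0.822 RPKM in WT liver. Those of Cry1 were 2.67 and 2.55 RPKM in Gcg-/- liver, and 2.13 and 2.49 RPKM in WT liver. The time of day at which livers were taken is not in the labels, so it cannot be told apart from the groups.

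**Figure D4:**
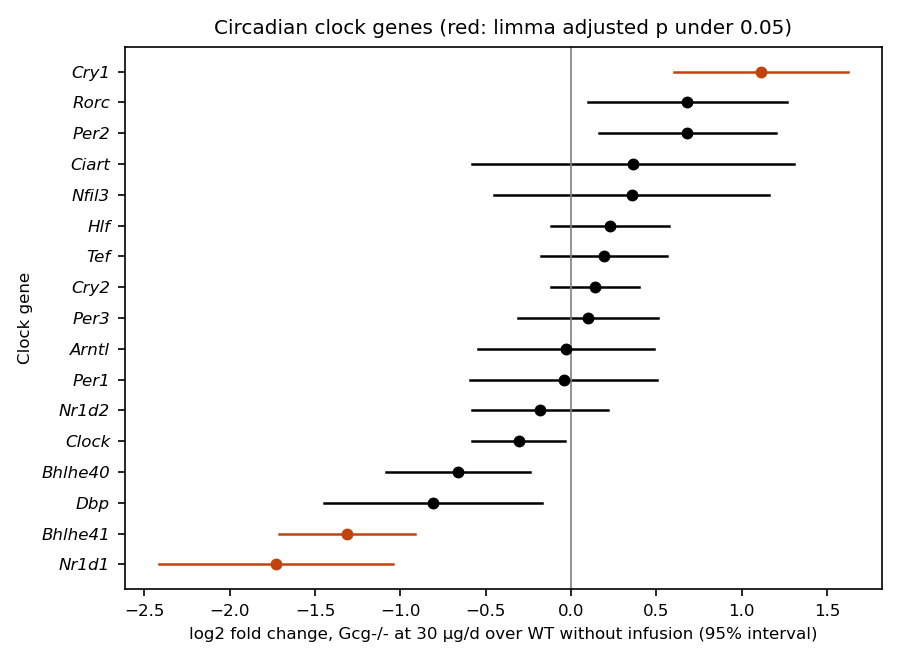
log2 fold change of Gcg-/- liver at 30 µg/d over uninfused WT liver (horizontal axis) with its 95% interval for the 17 tested clock genes (rows); red marks a limma adjusted p under 0.05. Cry1 lies above 0 at 1.11, and Bhlhe41 and Nr1d1 below 0 at -1.31 and -1.73.

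Promoters of the called clock genes Cry1 and Bhlhe41 are shown because each holds an E-box. They are the 250 bases before the start, from RefSeq on GRCm38.p6, with CACGTG (its own reverse complement) in capitals. Whether the promoter of Nr1d1 holds CACGTG is not given here. Cry1 is on chr10:85185055-85185304 and Bhlhe41 on chr6:145865421-145865670, both minus strand, with the E-box beginning 60 and 153 bases before the start.
Cry1: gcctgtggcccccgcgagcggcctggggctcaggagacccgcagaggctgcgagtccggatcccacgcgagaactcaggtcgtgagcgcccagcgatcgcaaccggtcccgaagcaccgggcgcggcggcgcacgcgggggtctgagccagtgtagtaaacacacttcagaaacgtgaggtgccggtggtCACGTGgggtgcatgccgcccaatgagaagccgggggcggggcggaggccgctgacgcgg
Bhlhe41: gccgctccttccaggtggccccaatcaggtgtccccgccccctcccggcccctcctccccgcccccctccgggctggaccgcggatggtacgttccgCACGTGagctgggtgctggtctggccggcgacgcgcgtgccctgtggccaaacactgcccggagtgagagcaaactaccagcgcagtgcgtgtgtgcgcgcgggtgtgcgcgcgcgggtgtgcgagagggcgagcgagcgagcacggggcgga
These genes moved in opposite directions. CACGTG was in 8.11% of the windows of genes called higher, 11.3% of those of genes called lower and 10.1% of those of all tested genes. TGACG, the core of the cyclic AMP response element, was in 18.9%, 30.9% and 30.6%, and CCAAT in 43.2%, 42.3% and 37.7%, each on either strand.

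Among called genes the largest log2 rise was in Fkbp5, a co-chaperone that tempers the glucocorticoid receptor and is induced by it. Fkbp5 stood at 19.8, 37.5, 15.4 and 29.7 RPKM in Gcg-/- libraries 11 to 14, against 4.52, 6.99 and 5.44 RPKM in WT libraries 1 to 3 (log2 fold change 1.94 ± 0.40 SE, adjusted p = 0.0253; at most 0.124, lost without 1, 2, 3, 12 or 14). Lpin1, a phosphatidate phosphatase of fat synthesis that also acts with nuclear receptors, stood at 63.5, 85.4, 32.7 and 74.6 RPKM against 14.99, 14.6 and 16.1 RPKM (log2 fold change 1.92 ± 0.44 SE, adjusted p = 0.0385; at most 0.157, lost without 1, 2, 3, 11, 12 or 14). In both genes library 13 was the lowest of the Gcg-/- libraries and still above every WT value. Uninfused Gcg-/- liver averaged 13.1 ± 0.412 RPKM for Fkbp5 and 23.8 ± 7.53 RPKM for Lpin1 (SD, n = 3). WT liver at 30 and 150 µg/d averaged 8.21 and 10.02 RPKM of Fkbp5, and 29.0 and 34.3 RPKM of Lpin1. At the matched dose of 30 µg/d, Gcg-/- against WT liver did not pass for Fkbp5 or Lpin1 (adjusted p = 0.0936 and 0.237). Zbtb16, a zinc-finger factor named after its values were seen, was at 10.5, 17.1, 3.07 and 18.3 RPKM against 1.85, 2.88 and 2.42 RPKM and did not pass (adjusted p = 0.0548; 0.0105 without library 13). Nampt, the rate-limiting enzyme of NAD salvage from nicotinamide, was at 29.4, 33.1, 41.8 and 24.5 RPKM against 11.9, 13.4 and 12.99 RPKM (log2 fold change 1.24 ± 0.23 SE, adjusted p = 0.0117; at most 0.0693, lost without 1, 2 or 3), and averaged 32.7 RPKM in uninfused Gcg-/- liver. WT liver at 30 and 150 µg/d averaged 19.9 and 20.5 RPKM of Nampt, and the matched-dose difference did not pass (adjusted p = 0.161).

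Other genes of the 15 largest rises had varied roles. Slc16a12, a creatine transporter, had 33.2, 33.9, 34.1 and 32.2 RPKM in Gcg-/- liver at 30 µg/d, against 13.2, 17.9 and 14.2 RPKM in WT (log2 fold change 1.10, adjusted p = 0.0289; at most 0.15, lost without 1, 2, 3, 11, 12 or 14). Stim2, the calcium sensor of the endoplasmic reticulum, had 9.22, 8.94, 7.06 and 8.71 RPKM against 3.91, 4.41 and 4.33 RPKM (log2 fold change 0.86, adjusted p = 0.0098; at most 0.0616, lost without 1, 2 or 3). Pcp4l1 had 5.81, 6.69, 4.81 and 5.38 RPKM against 2.65, 1.25 and 1.47 RPKM (log2 fold change 1.28, adjusted p = 0.00968; at most 0.058, lost without 2 or 3), and it was higher than in WT at the matched 30 µg/d too (adjusted p = 0.011). For Setd7, a lysine methyltransferase, values were 2.93, 2.54, 3.98 and 3.88 RPKM against 1.85, 1.27 and 1.19 RPKM (adjusted p = 0.016; at most 0.117, lost without 2 or 3). Sod3, extracellular superoxide dismutase, had 12.2, 10.5, 16.6 and 11.9 RPKM against 8.5002, 5.76 and 5.36 RPKM (adjusted p = 0.0273; at most 0.176, lost without 2, 3, 11 or 13). The remaining genes of the 15 largest rises were Tmc7, Baiap2, Fam35a and Nfxl1, with Lyve1 and Vcam1 taken up with the vessel genes. Tmc7 had a log2 fold change of 1.04 (adjusted p = 0.016; at most 0.0871, lost without 1, 2 or 3) and Baiap2 of 1.03 (adjusted p = 0.0443; at most 0.228, lost without 1, 2, 3, 11, 12 or 14). Fam35a had 0.87 (adjusted p = 0.0355; at most 0.138, lost without 1, 2, 3, 11, 12 or 14) and Nfxl1 0.76 (adjusted p = 0.0098; at most 0.0691, lost without 3). In uninfused Gcg-/- against uninfused WT liver, Nfxl1, Setd7 and Slc16a12 were called higher too (adjusted p = 0.0306, 0.0389 and 0.0468). Pcp4l1, Sod3, Stim2, Tmc7, Baiap2 and Fam35a were not (adjusted p = 0.0502, 0.0681, 0.305, 0.519, 0.596 and 0.738), which does not show equal levels.

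Most markers of vessel and stromal cells lay above 0 in Gcg-/- liver at 30 µg/d against uninfused WT liver, and few passed the test. In these bulk samples, a change in the number of cells of a type and a change in RNA per cell cannot be told apart. Of 17 tested endothelial markers 1 was called higher (5.88%), 14 lay above 0 and the median log2 fold change was 0.24. The called one was Lyve1, a hyaluronan receptor of sinusoidal endothelium, at 5.01, 6.52, 9.62 and 5.65 RPKM against 2.69, 3.01 and 1.804 RPKM in WT (log2 fold change 1.12 ± 0.24 SE, adjusted p = 0.0277; at most 0.178, lost without 1, 2, 3, 12 or 13, and 0.0543 without library 13). The summed level of all 18 endothelial markers was 210.1, 217.5, 166.7 and 205.0 RPKM in Gcg-/- libraries 11 to 14, against 173.6, 168.5 and 155.9 RPKM in WT libraries 1 to 3, so library 13 fell within the WT range. Pecam1, which every endothelium carries, was at 6.41, 6.89, 5.995 and 7.24 RPKM against 5.77, 5.29 and 4.87 RPKM (log2 fold change 0.27, adjusted p = 0.0949). Outside the list, and named after their values were seen, Nos3, endothelial nitric oxide synthase, was called at 1.38, 1.51, 1.21 and 1.26 RPKM against 0.743, 0.953 and 0.732 RPKM (adjusted p = 0.0273; at most 0.161, lost without 1, 2, 3, 11 or 12), as was Nrp2, a coreceptor for VEGF, at 5.71, 5.07, 5.52 and 4.59 RPKM against 2.596, 2.78 and 2.87 RPKM (adjusted p = 0.0253; at most 0.117, lost without 1, 2, 3, 11 or 12). Vcam1, an adhesion molecule, was at 4.18, 6.79, 6.66 and 5.45 RPKM against 2.54, 2.8002 and 2.87 RPKM (adjusted p = 0.0358; at most 0.145, lost without 1, 2, 3, 12, 13 or 14). The part of the endothelial marker level in these results was not tested.

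All 16 stellate cell and fibroblast markers lay above 0, with a median log2 fold change of 0.29, and 1 was called (6.25%). It was Col1a2, a chain of type I collagen, at 4.02, 3.83, 5.57 and 5.21 RPKM against 2.83, 2.66 and 2.13 RPKM in WT (log2 fold change 0.67, adjusted p = 0.0442, a call lost whichever of the 7 libraries was left out). The summed markers were 206.5, 208.2, 194.5 and 220.3 RPKM in Gcg-/- libraries 11 to 14, against 153.6, 168.5 and 156.6 RPKM in WT libraries 1 to 3, without overlap. These sums were 197.3 to 210.3 RPKM in uninfused Gcg-/- liver and 193.4 to 214.4 RPKM in Gcg-/- liver at 150 µg/d. In WT liver they were 144.9 to 206.3 RPKM at 30 µg/d and 175.1 to 194.7 RPKM at 150 µg/d. Of 15 Kupffer cell and macrophage markers limma called 0, with 3 at an unadjusted p under 0.05 (median log2 fold change 0.27, 13 above 0). Cd163, a hemoglobin scavenger receptor with the largest log2 fold change on that list, was at 9.13, 11.5, 6.46 and 11.4 RPKM against 4.75, 4.63 and 3.95 RPKM (log2 fold change 0.94, adjusted p = 0.062), and without library 13 it was called higher (log2 fold change 1.10, adjusted p = 0.0367). The summed Kupffer cell and macrophage markers, 357 to 425 RPKM in Gcg-/- liver against 313 to 392 RPKM in WT, overlapped. Mpeg1, a pore-forming protein of macrophages that is not on the list, was called lower, at 16.5, 15.97, 14.9 and 20.8 RPKM against 30.5, 30.2 and 23.8 RPKM (adjusted p = 0.0358; at most 0.151, lost without 1, 2, 3, 11, 12 or 13). Of 5 tested lymphocyte markers 1 was called, Zap70, lower; 3 lay above 0 and the median log2 fold change was 0.05. In contrast to Zap70, Ptprc, the common leukocyte antigen CD45, was at 2.42, 2.07, 2.75 and 3.01 RPKM against 2.02, 2.18 and 1.79 RPKM (adjusted p = 0.394). The summed lymphocyte markers, Zap70 among them, were 8.37 to 9.69 RPKM in Gcg-/- liver at 30 µg/d against 11.1 to 12.7 RPKM in WT, and 9 of the 14 in the file were under the filter. Without Zap70 the sums were 8.14, 6.17, 7.39 and 7.87 RPKM in Gcg-/- libraries 11 to 14, against 7.78, 6.09 and 5.92 RPKM in WT libraries 1 to 3, and overlapped. Hepatocyte, cholangiocyte, neutrophil, erythroid, pancreas and adipocyte markers held no limma call and at most 2 members each at an unadjusted p under 0.05.

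Of 21 interferon-induced genes 2 were called lower and none higher (9.52%); 18 lay below 0, and the median log2 fold change was -0.34. Irgm2, a GTPase against intracellular microbes, was at 9.69, 9.46, 13.05 and 12.4 RPKM in Gcg-/- liver at 30 µg/d, against 17.8, 16.8 and 18.9 RPKM in WT (log2 fold change -0.64, adjusted p = 0.0282; at most 0.157, lost without 1, 2, 3, 11 or 12). Gbp6, a guanylate-binding protein, was at 2.77, 2.67, 2.72 and 3.17 RPKM against 4.88, 5.02 and 4.74 RPKM (log2 fold change -0.62, adjusted p = 0.0289; at most 0.124, lost without 1, 2, 3, 11, 12 or 13). WT liver at 30 and 150 µg/d averaged 15.5 and 12.1 RPKM of Irgm2, and 4.16 and 2.84 RPKM of Gbp6. At the matched dose of 30 µg/d, Gcg-/- against WT liver did not pass for either gene (adjusted p = 0.141 and 0.16). Under median-of-ratios scaling and under quantile normalization 4 of the 21 were called. With no filter neither Irgm2 nor Gbp6 was called (adjusted p of 0.0513 and 0.0527), and without library 1, 2, 3, 11 or 12 the count was 0.

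Xenobiotic genes had 1 of 29 called (3.45%, median log2 fold change 0.03). It was Nr1i2, the pregnane X receptor that senses drugs and bile acids, at 26.1, 31.3, 31.5 and 29.4 RPKM against 17.5, 19.2 and 18.95 RPKM in WT (log2 fold change 0.64 ± 0.11 SE, adjusted p = 0.0098; at most 0.058, lost without 1 or 3). Means of Nr1i2 were 27.2 RPKM in uninfused and 32.7 RPKM in 150 µg/d Gcg-/- liver, and 23.8 and 32.4 RPKM in WT liver at 30 and 150 µg/d. Por, the reductase that feeds electrons to cytochromes P450, was at 203, 232, 219.9 and 173 RPKM against 84.3, 123 and 110.4 RPKM (adjusted p = 0.0563), and Cyp2c70, which hydroxylates bile acids, at 823, 673, 782 and 635 RPKM against 291, 265 and 280.2 RPKM (adjusted p = 0.0505). Neither passed, and in neither did the groups overlap. Gclc, which starts glutathione synthesis, was called lower, at 44.2, 48.3, 57.05 and 44.1 RPKM against 86.8, 84.5 and 97.6 RPKM (adjusted p = 0.0282; at most 0.159, lost without 1, 2, 3, 11, 12 or 14). Sqstm1, an autophagy receptor, was called lower too, at 114, 97.98, 87.5 and 108 RPKM against 156, 157 and 166 RPKM (adjusted p = 0.017; at most 0.117, lost without 1, 2, 3 or 12). At the matched dose of 30 µg/d, Gcg-/- against WT liver did not pass for Nr1i2, Gclc or Sqstm1 (adjusted p = 0.21, 0.112 and 0.194). Cyp2c70, Gclc and Sqstm1 were named after their values were seen.

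Some large differences did not pass, and those of Mt1, Mt2 and Serpina3c were larger on the log2 scale than that of any called gene. Mt1 and Mt2 encode metallothioneins, small proteins that bind zinc and copper. Mt1 stood at 33.1, 36.5, 27.8 and 26.6 RPKM in Gcg-/- libraries 11 to 14, against 410.1, 316 and 248 RPKM in WT libraries 1 to 3 (log2 fold change -3.33 ± 0.95 SE, adjusted p = 0.0834). Mt2 stood at 10.1, 21.8, 10.6 and 9.88 RPKM, against 293, 145 and 103 RPKM in WT (log2 fold change -3.63 ± 1.23 SE, adjusted p = 0.144). Neither overlapped, and means in other groups, such as 1010.0 ± 754 RPKM for Mt1 in Gcg-/- liver at 150 µg/d (SD, n = 4), varied widely. Serpina3c, a serine protease inhibitor, was at 228, 144, 124 and 156 RPKM against 11.96, 4.56 and 6.01 RPKM (log2 fold change 4.33 ± 1.26 SE, adjusted p = 0.0907). Eif4ebp3, an inhibitor of translation initiation, was at 181, 109, 58.9 and 59.8 RPKM against 26.3, 10.2 and 12.3 RPKM (adjusted p = 0.0824). All 4 of these genes were named after their values were seen, and all 4 were called with the compared groups alone and with array weights. Of the 26 acute phase genes, the list that holds the metallothioneins, limma called 0, with 3 at an unadjusted p under 0.05 (median log2 fold change -0.37).

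The cyclic AMP and gluconeogenic genes through which glucagon is best known held no call by limma. Of 19 cyclic AMP and CREB targets 0 were called and 5 were at an unadjusted p under 0.05 (median log2 fold change -0.28). Of 13 receptor and signalling genes 0 were called and 4 at that p (-0.18), and of 16 gluconeogenic genes 0 and 2 (-0.05). Pck1, which commits carbon to glucose, stood at 794, 1685, 880.1 and 885 RPKM in Gcg-/- liver at 30 µg/d, against 941, 923 and 559 RPKM in WT (log2 fold change 0.36, 95% interval -0.34 to 1.06). Tat, tyrosine aminotransferase, stood at 446, 1077, 628 and 549 RPKM against 489, 638 and 551 RPKM (log2 fold change 0.20, 95% interval -0.66 to 1.06). Both intervals reach above 1 on the log2 scale, and in both genes library 12 was the highest. Pde4b, a phosphodiesterase that breaks down cyclic AMP, was at 1.38, 1.65, 3.33 and 1.07 RPKM against 5.73, 5.71 and 7.94 RPKM without overlap (log2 fold change -1.43, adjusted p = 0.0818).

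Some genes with high means in uninfused Gcg-/- liver were nearer the WT level at 30 µg/d. Txnip, a glucose-responsive inhibitor of thioredoxin, stood at 164, 165 and 93.9 RPKM in uninfused Gcg-/- libraries 4 to 6, at 55.7, 22.6, 18.1 and 19.1 RPKM at 30 µg/d and at 26.6, 40.8 and 19.3 RPKM in WT (log2 fold change of 30 µg/d over WT -0.10, 95% interval -0.93 to 0.74). Against uninfused Gcg-/- liver its fall passed the test (log2 fold change -2.36, adjusted p = 0.0199). Gadd45b, a growth arrest gene, stood at 19.9, 8.68 and 2.296 RPKM in uninfused Gcg-/- liver and at 3.37, 0.189, 0.285 and 0.361 RPKM at 30 µg/d, against 0.4401, 0.727 and 0.333 RPKM in WT. Arrdc3, an arrestin-like protein, stood at 93.6, 91.6 and 98.7 RPKM in uninfused Gcg-/- liver and at 60.3, 19.8, 45.2 and 62.3 RPKM at 30 µg/d, against 31.2, 51.3 and 33.1 RPKM in WT. Inhba, a subunit of activin, stood at 7.92, 8.39 and 8.61 RPKM in uninfused Gcg-/- liver and at 5.57, 1.62, 3.44 and 2.59 RPKM at 30 µg/d, against 2.55, 0.883 and 2.39 RPKM in WT. A missed test here does not show that the levels were equal.

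Of 24 periportal genes limma called 0, with 5 at an unadjusted p under 0.05 (median log2 fold change -0.19). Of 30 pericentral genes Oat was called (3.33%, median -0.01). Glul, glutamine synthetase of the last hepatocytes before the central vein, was at 601, 531, 249.8 and 571 RPKM against 436, 419 and 407 RPKM in WT (log2 fold change 0.14, 95% interval -0.36 to 0.63), with library 13 below all others. Cyp2e1, a pericentral cytochrome, had log2 fold change 0.13 (95% interval -0.34 to 0.59). Cyp2f2, a periportal cytochrome, had 0.14 (95% interval -0.22 to 0.49). Cyp7a1, the rate-limiting enzyme of bile acid synthesis, was at 70.5, 60.8, 79.5 and 111 RPKM against 20.3, 36.2 and 39.1 RPKM without overlap (log2 fold change 1.33, adjusted p = 0.109). Lists of fatty acid, cholesterol and bile acid genes, insulin and FOXO targets, nuclear oxidative phosphorylation genes and proliferation genes held no limma call and between 1 and 5 members each at an unadjusted p under 0.05. Of these, 20 of the 21 cholesterol genes lay below 0 (median log2 fold change -0.24) and 15 of the 16 proliferation genes above (0.21). Off these lists, and named after their values were seen, 3 genes of lipid metabolism were called lower. Ebp, a sterol isomerase of cholesterol synthesis, was at 92.4, 99.5, 88.2 and 83.7 RPKM against 136, 133 and 141 RPKM in WT (adjusted p = 0.0191; at most 0.117, lost without 1, 2 or 3). Crot, a carnitine acyltransferase of peroxisomes, was at 104, 101, 148 and 153 RPKM against 227, 266 and 215 RPKM (adjusted p = 0.0477; at most 0.154, lost without 1, 2, 3, 11 or 12), and Etfdh, which passes electrons of fatty acid oxidation to ubiquinone, at 86.2, 83.1, 80.3 and 82.3 RPKM against 116, 114 and 109 RPKM (adjusted p = 0.0344; at most 0.138, lost without 1, 2, 3, 11, 12, 13 or 14). Uninfused Gcg-/- liver averaged 77.5 RPKM of Ebp, 205 RPKM of Crot and 83.04 RPKM of Etfdh. Against uninfused WT, Ebp and Etfdh were called there (adjusted p = 0.00531 and 0.0401) and Crot was not (adjusted p = 0.612). WT liver at 30 µg/d averaged 86.1, 196 and 107 RPKM of these genes. Gcg-/- against WT at that dose did not pass for any of them (adjusted p = 0.821, 0.199 and 0.103).

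**Figure D5:**
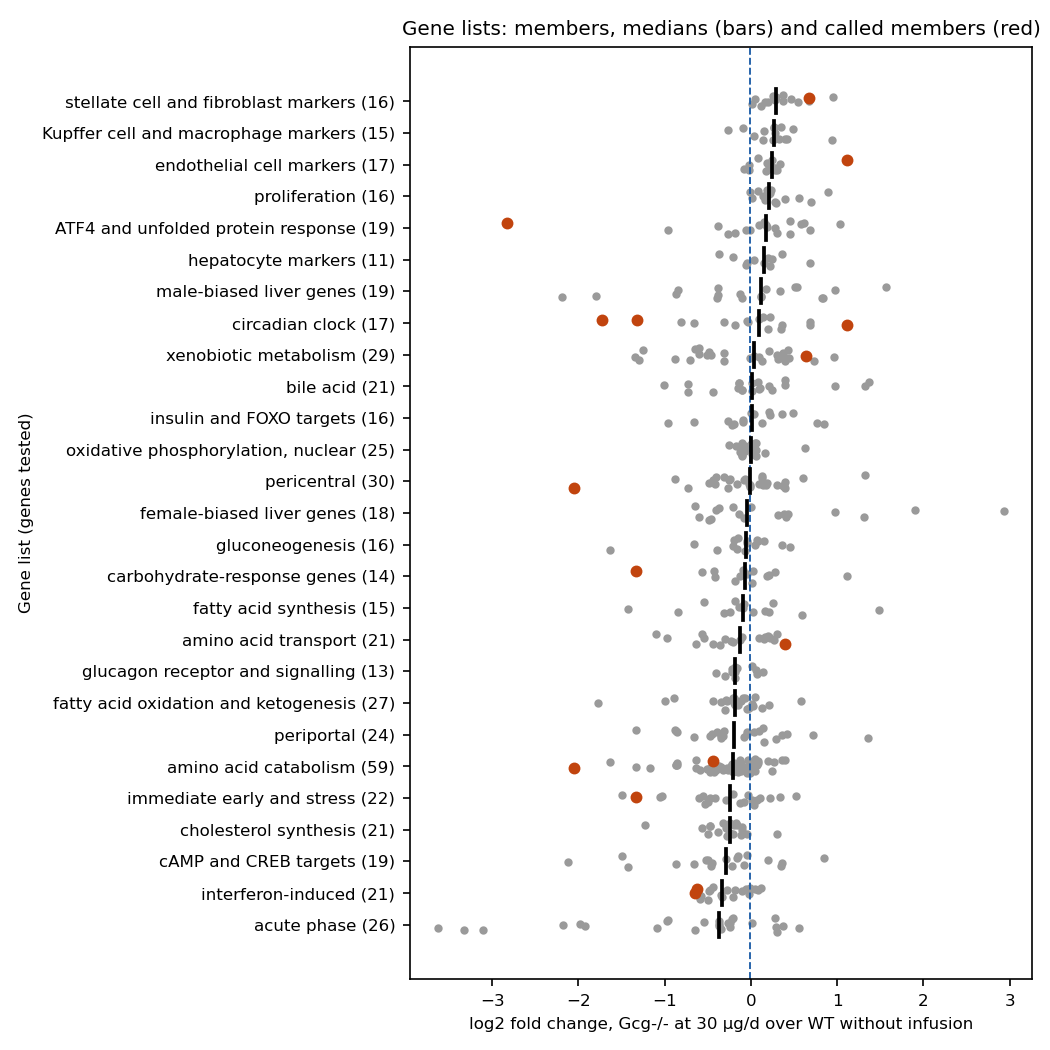
log2 fold change of Gcg-/- liver at 30 µg/d over uninfused WT liver (horizontal axis) for the members of each list with at least 10 tested genes (rows); bars are list medians, red points called members and the dashed line the median of all tested genes. Medians run between -0.37 (acute phase) and 0.29 (stellate cell and fibroblast markers), and few members were called in any list.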

How the data were processed

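The labels' protocols describe strand-specific sequencing of liver polyA RNA. Software named in the submitters' processing notes is CASAVA 1.8.2 and FastQC, with GRCm38 as the build. No aligner, counter or annotation is given in the sources used here, nor whether reads were counted by strand. The authors deposited 1 table of RPKM values, unpooled, for 24475 genes, of which 5599 are at 0 in every library. Groups came from titles, nothing pairs the libraries, and no 2 columns were identical.

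Depth was estimated from the RPKM steps of 5728 genes with 1 transcript. Between 67.2 and 70.0% of low values fell within 0.1 of a whole number of reads (20% by chance), which is too incomplete for a count test. The limma package (3.58.1, R 4.3.3) then fitted log2(RPKM + 1) with a mean-variance trend in the 11590 genes with a mean of at least 0.5 RPKM. All 22 libraries entered in 6 groups (16 residual and 3.18 prior degrees of freedom), and p-values were adjusted by Benjamini-Hochberg over all tested genes. Every adjusted p and 95% interval is from limma. The procedure was tested on simulated data. A pseudocount of 1 understates fold changes of low genes. The p-values measure only how these libraries vary, which may be technical.

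Named by rule were the 15 largest rises and 15 largest falls among called genes with a mean of at least 1 RPKM in a group, up to 3 members of smallest p from each list with a call, and a set of landmark genes. Named after their values were seen were Robo1, Gstm6, Adck3, Zbtb16, Nos3, Nrp2, Mpeg1, Gclc, Sqstm1, Cyp2c70, Mt1, Mt2, Serpina3c, Eif4ebp3, Cbs, Hal, Bhlhe40, Per1, Per2, Arntl, Dbp, Pde4b, Cd163, Ebp, Crot, Etfdh and, in the closing section, Gpr182, Tymp, Stab1, Stab2 and Kdr. The members and the 34 gene lists were chosen with earlier results of these data known. Promoters are RefSeq's on GRCm38.p6, with windows for 9236 tested genes. Alternatives were 2 pseudocounts, 2 filters, 3 scalings, the compared groups alone, array weights and each library left out. Leaving out libraries 4 and 13 together, and the motif TGATGNAA, were added after seeing the data. Figures were drawn with matplotlib 3.10.9.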

Additional observations from a re-analysis of the deposited data

Results flagged for a closer look

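In 14 of 152 sets of values examined (140 genes and 12 lists), 1 of the 4 Gcg-/- libraries at 30 µg/d lay farther from the other 3 than the 95% limit of Dixon's test allows; the gap to the nearest library divided by the range of the 4 is in parentheses. Chance gives about 1 in 20 such sets. Libraries 11, 12 and 13 accounted for 4 of them each and library 14 for 2.

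In library 13, Mafk was lowest at 2.88 RPKM, beside 3.61 to 3.71 RPKM in the others (0.887). The endothelial markers Stab2, at 11.02 RPKM beside 14.1 to 14.5 (0.871), and Kdr, at 10.4 RPKM beside 13.9 to 14.6 (0.830), were lowest there. The mean log2(RPKM + 1) of female-biased liver genes was highest there, at 2.36 beside 0.880 to 1.02 (0.902).

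In library 11, Rnaset2a was lowest at 24.3 RPKM, beside 87.6 to 97.5 RPKM (0.865); it has a near-identical copy, so its level is uncertain. Gadd45b was highest at 3.37 RPKM, beside 0.189 to 0.361 (0.946), Txnip at 55.7 RPKM, beside 18.1 to 22.6 (0.880), and Arntl at 2.55 RPKM, beside 0.315 to 0.641 (0.854).

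In library 12, Adck3 was highest at 63.8 RPKM, beside 42.5 to 44.9 RPKM (0.888), Mt2 at 21.8 RPKM, beside 9.88 to 10.6 (0.937), Stab1 at 10.2 RPKM, beside 9.19 to 9.29 (0.903), and Pck1 at 1685 RPKM, beside 794 to 885 (0.898). In library 14, Tymp was highest at 32.8 RPKM, beside 17.5 to 19.6 (0.864), and Gpr182, a receptor of sinusoidal endothelium, lowest at 12.7 RPKM, beside 15.3 to 15.5 (0.901).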

How the results depend on the processing

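No paired analysis was possible because the replicate numbers run through the whole series and no 2 groups share one. With pseudocounts of 0.1 and 0.5, a filter at a mean of 2 RPKM, quantile normalization, 1 RPKM sum for all libraries and median-of-ratios scaling, between 122 and 152 genes were called, within 1.5 times of the 125. With no filter 63 were called (18 higher, 45 lower; 56 shared with the 125), with more genes tested. The 2 groups alone gave 237 (90 higher, 147 lower; 93 shared). Array weights gave 1128 (497 higher, 631 lower; all 125 shared), and 44.1% of these were higher, against 33.6% of the 125. Without libraries 4 and 13 the count was 190 (90 higher, 100 lower; 93 shared). The cause of these shifts was not tested. With 1 library left out, 4 to 116 genes were called, 0 to 53 higher and 4 to 65 lower.

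Of the 65 called genes followed, 33 lost the call with no filter, 12 in the 2 groups alone and 9 without libraries 4 and 13. Under quantile normalization 5 lost it, with 1 RPKM sum 2 and with a pseudocount of 0.1 it was 1. Because the compared groups did not overlap in any called gene, only the 3 scalings could have turned a direction among the 65. None did. Of 75 genes followed that were not called, 44 gained a call with array weights, 17 in the 2 groups alone, 9 without libraries 4 and 13, 3 under quantile normalization, 2 under median-of-ratios scaling and 1 each with 1 RPKM sum and the filter at 2 RPKM; single omissions gave at most 6, without library 13. Signs turned in 6 genes that were not called. Per1 was 0.0072 with array weights and 0.040 without libraries 4 and 13, where Txnip was 0.065, Arntl 0.059 and Axin2 0.17. Over single omissions Per1 ranged between -0.16 and 0.072, Arntl between -0.34 and 0.14, Txnip between -0.46 and 0.18, Axin2 between -0.22 and 0.17, Gadd45b between -0.22 and 0.40 and Tat between -0.054 and 0.37 (log2 fold changes). Depth limits genes with a mean under 0.5 RPKM, which were not tested. Estimated depth was also lower in every Gcg-/- library at 30 µg/d than in every uninfused WT library. Its part in calls at low RPKM, such as those of Mmd2, Lrtm1, Robo1, Bhlhe41 and Meg3, was not tested.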
